A study of Mus musculus with 16 samples.

Results

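The genes described here are the guidance ligands and receptors of axons and migrating neural crest: Eph receptors and ephrins, semaphorins with their plexin and neuropilin receptors, Slits and Robo receptors, and netrins and Unc5 receptors. They were chosen by gene symbol, though with earlier results of these data known, and 68 of the 24421 gene symbols in the deposited tables matched, 33 of them receptors and 35 ligands. RNA-seq was made from miR-302 knockout (KO) and wild-type (WT) C57BL/6 mouse embryos at 3 stages. At E7.5 whole embryos were used (2 KO and 2 WT libraries). At E8.5 Wnt1-Cre+ cells were sorted (4 KO and 3 WT libraries analysed here, with 1 further KO library not analysed here), and at E9.5 Sox10+ cells were sorted (2 KO and 2 WT libraries). The E8.5 titles of WT1 and of the KO library not analysed carry the mark 5s, which no analysed KO library carries. What 5s stands for is not stated. Wnt1-Cre marks cells of the dorsal neural tube and the crest that leaves it, and Sox10 is a transcription factor of migrating crest, so neither sort holds all the tissue that guides these cells. The labels do not say whether the replicate libraries came from separate embryos, so p-values measure the spread between these libraries only, which may be technical.

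Guidance cues are read by receptors on the growing axon or the migrating cell. Ephrins are tethered to the neighbouring cell surface, ephrin-As by a lipid anchor and ephrin-Bs by a transmembrane segment, and bind EphA and EphB receptor tyrosine kinases. Secreted class 3 semaphorins mostly act through neuropilins, which bind the ligand, paired with plexins, which signal. Slits are secreted repellents read by Robo receptors, and netrins attract through Dcc or Neo1 and repel through Unc5 receptors. In the mouse embryo, Eph and ephrin boundaries and the semaphorin and neuropilin system are known for keeping crest streams apart and confining trunk crest to part of each somite.

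Libraries held 4912827 to 14861728 reads on genes. Reads on the 4 miR-302 genes, which lie in an intron of Larp7, were 0 in all 8 KO libraries. They were 14 and 25 in the WT libraries at E7.5, 1, 0 and 0 at E8.5, and 0 and 1 at E9.5, so the deletion could be checked against its control only at E7.5. Sox10 was present in both sorts, at 690.1 to 932 normalised read counts in KO and 662 to 1017 in WT at E8.5, and at 511 and 1165 in KO and 639 and 722 in WT at E9.5. Erythroid markers moved with libraries: their summed level was 20998 and 20.5 RPM (reads of a gene scaled to the total of its library) in KO1 and KO2 at E9.5 against 1.1 and 2.5 in WT, and 1649, 2516, 1.8 and 98.2 in the 4 KO libraries at E8.5 against 0.6 to 0.9 in WT. Each library's description carries a code number, which was 171 for both KO and 209 for both WT libraries at E9.5. What the code stands for is not stated, and code and genotype cannot be told apart there.

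Levels between genes are compared as RPKM, the RPM of a gene per kilobase of its longest transcript. Several family leaders in WT changed with the stage. Efna2 was the leading ephrin-A in sorted cells, at 35.7 ± 11.1 RPKM at E8.5 (SD, n = 3) and 37.7 ± 2.4 RPKM at E9.5 (SD, n = 2). In whole E7.5 embryos the leading ephrin-A was Efna1, at 12.2 ± 8.3 RPKM, with Efna4 close behind at 11.6 RPKM, a gap well inside the spread. Epha1 made up 77.9% of EphA receptor RPKM in WT at E7.5, whereas Epha7 led at E8.5 (44.9%) and E9.5 (49.4%). Robo1 held 93.3% of Robo RPKM in WT Sox10+ cells at E9.5. Plxnb2 at 15.1 ± 5.4 RPKM and Plxna1 at 9.59 RPKM led the plexins there, and Ephb4 at 16.5 ± 3.7 RPKM led the EphB receptors. Nrp2 at 8.78 ± 2.88 RPKM and Nrp1 at 7.01 RPKM stood within their spread of each other. In the families not yet named, the WT leaders at E7.5 were Sema6a (9.997 RPKM), Sema3f (7.75 RPKM), Ephb4 (7.33 RPKM), Plxnb2 (6.56 RPKM), Efnb1 (5.80 RPKM), Slit3 (4.68 RPKM), Sema4c (3.62 RPKM), Unc5b (3.60 RPKM), Nrp1 (3.48 RPKM) and Robo1 (1.94 RPKM). Sema5b (0.742 RPKM), Sema7a (0.332 RPKM) and Ntn1 (0.3 RPKM) led theirs at low levels. At E8.5 they were Efnb1 (10.4 RPKM), Plxna1 (6.07 RPKM), Ephb1 (5.68 RPKM), Robo1 (3.42 RPKM), Nrp2 (3.38 RPKM), Sema3f (3.34 RPKM), Sema4c (3.20 RPKM), Sema5b (2.71 RPKM) and Sema6a (1.76 RPKM), with Slit3, Ntn1 and Unc5b between 0.571 and 1.31 RPKM. At E9.5 they were Efnb2 (12.6 RPKM), Sema4c (5.26 RPKM), Sema3a (3.99 RPKM), Sema5a (2.30 RPKM), Unc5c (2.23 RPKM), Sema6b (1.67 RPKM), Slit3 (1.17 RPKM) and Ntn3 (0.921 RPKM). Several of these leads lay inside the spread between libraries. In WT at E8.5 Plxnb2 (5.94 RPKM) was within the SD of Plxna1 (1.71 RPKM) and Ephb4 (5.41 RPKM) within that of Ephb1 (3.66 RPKM). Epha4 (2.20 RPKM) was likewise within that of Epha7 (3.75 ± 3.18 RPKM). Plxnb3, Epha6 and Sema7a were at or near 0 in the sorted cells, and Epha5, Epha6 and Sema7a had no read in any E9.5 library.

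**Figure D1:**
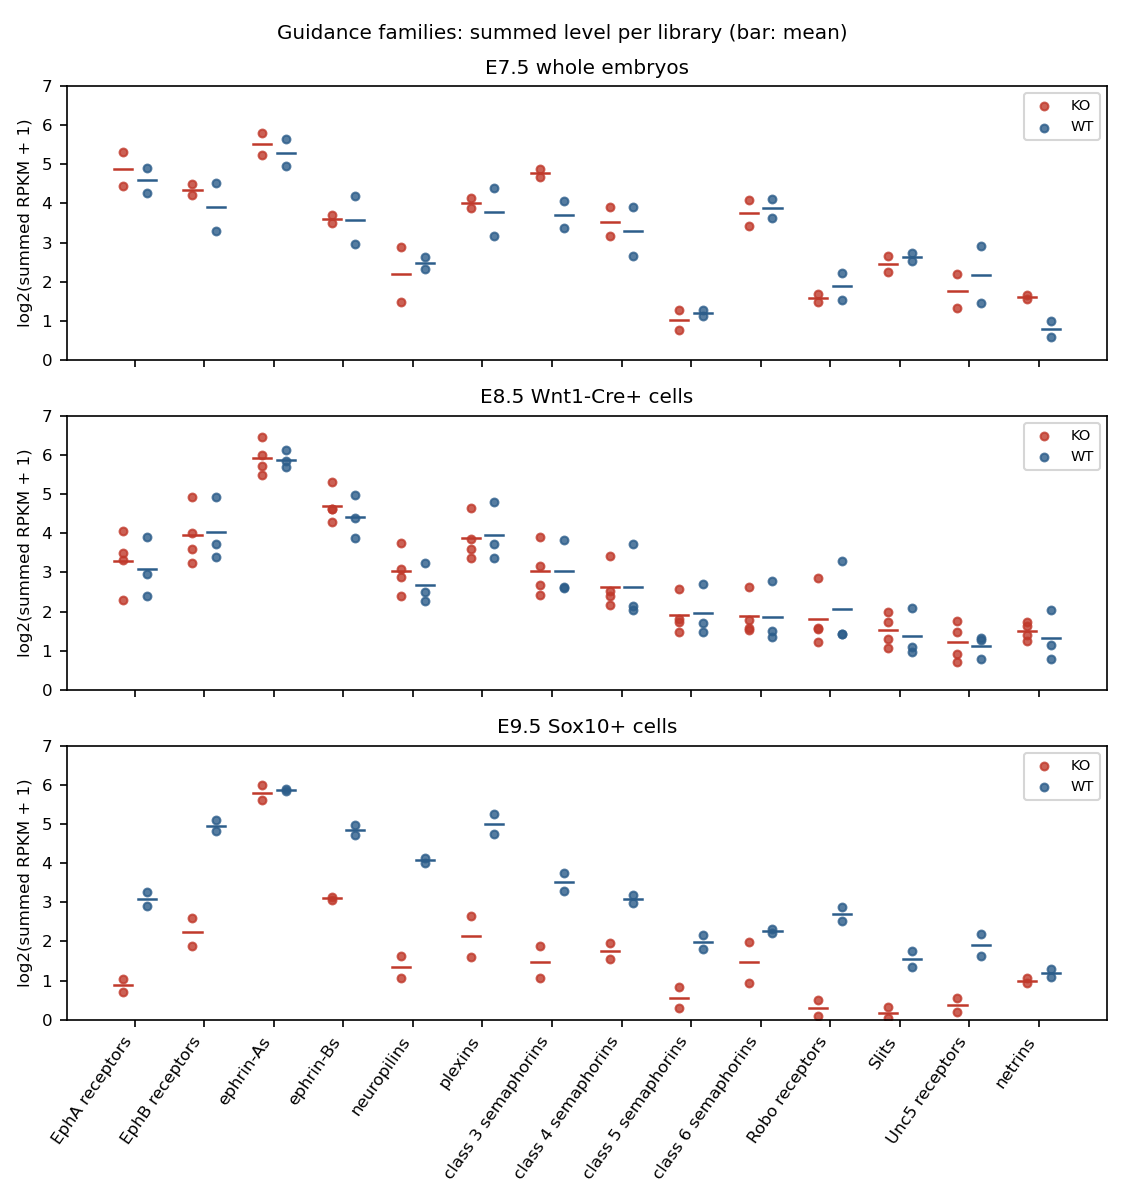
RPKM summed over the members of each family in every library, on a log2(RPKM + 1) axis, KO left of WT, at the 3 stages. At E9.5 both KO points lie below both WT points in 13 of the 14 families drawn, the ephrin-As being the exception; with the authors' scaling in place of total reads that number is 11.

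Summed by family, class 3 semaphorins stood at 24.4 and 28.4 RPKM in KO against 9.3 and 15.7 RPKM in WT at E7.5, and KO and WT levels overlapped in every family at E8.5. At E9.5 EphA receptors summed to 0.6 and 1.1 RPKM in KO against 6.5 and 8.6 RPKM in WT. EphB receptors summed to 2.7 and 5.1 RPKM in KO against 27.1 and 33.1 RPKM in WT, and plexins to 2.1 and 5.3 RPKM in KO against 25.9 and 37.2 RPKM in WT. Neuropilins stood at 1.1 and 2.1 RPKM in KO against 14.9 and 16.7 RPKM in WT. Ephrin-As did not separate, with 47.8 and 62.9 RPKM in KO against 56.6 and 58.9 RPKM in WT. RPKM scales by total reads, under which all genes together lay lower in KO at E9.5 (median log2 fold change -1.01). With the authors' scaling, 11 of the 14 families lay below WT without overlap, class 6 semaphorins overlapped, and ephrin-As and netrins lay above WT. These are bulk libraries, in which fewer cells of a type and less RNA per cell cannot be told apart.

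At E7.5 no member passed the test. Of the 68 members, 51 reached the mean of 10 normalised read counts required, and limma on log2(value + 1) called 0 of them at an adjusted p of 0.05, the smallest adjusted p being 1.0. Over all 12492 genes it also called 0.0% higher and 0.0% lower, and edgeR and DESeq2 on the recovered reads called 0 members. At an unadjusted p below 0.05 there were 3 members higher and 1 lower, against 2.18% and 0.905% of all genes. The groups did not overlap for 9 members higher in KO and 4 lower, or 17.6% and 7.84% of those tested, against 16.1% and 12.7% of all genes, so the members stood near the background.

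The 4 members of smallest p at E7.5 were all ligands. Sema3f, a repellent that acts through Nrp2, had 459 and 453 normalised read counts in KO against 213 and 146 in WT, a log2 difference of 1.37 ± 0.32 (SE). Ntn1, the founding netrin, had 36.2 and 57.7 in KO against 16.2 and 7.54 in WT, a log2 difference of 1.95 ± 0.62 (SE). Sema3e, the ligand of Plxnd1, had 353 and 232 in KO against 185 and 109 in WT. Sema3c, an attractant of outflow tract crest, went the other way, with 2.78 and 3.21 in KO against 21.1 and 21.4 in WT. In each of these 4 the KO and WT values did not overlap, and none held after adjustment over all genes by limma. The other members of smallest p were spread more widely. Efna2 had 122 and 187 in KO against 92.8 and 81.7 in WT, and Sema7a had 12.5 and 17.6 in KO against 11.9 and 2.51 in WT, without overlap in either. Plxna1 had 374 and 299 in KO against 339 and 106 in WT, Ephb4 319 and 274 in KO against 329 and 94.2 in WT, and Sema4c 160.03 and 111 in KO against 141 and 46.5 in WT. Sema6d had 72.4 and 113 in KO against 85 and 46.5 in WT. In these last 4 WT2 was the low library and WT1 overlapped KO. The summed trophoblast markers also separated the groups at this stage, at 4233 and 7193 RPM in KO against 1791 and 962 in WT over 8 genes. Single trophoblast genes were split, with 5 log2 fold changes above 0 and 3 below. Of these 8 genes, 3 lay higher and 2 lower in KO without overlap. Uterine gland and decidua markers separated them the other way, summing to 899 and 875 RPM in KO against 1322 and 2360 in WT over 7 genes. Ltf, a gland secretory protein, had a log2 difference of -7.04 and did not pass the limma test after adjustment (adjusted p = 0.850). The part of either list in these differences was not tested.

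At E8.5 no member passed the test either, but 4 of those tested were higher in every KO library than in every WT library. Of 55 members tested, limma called 0 (smallest adjusted p 0.776), against 0.0% of all 12257 genes in each direction, and edgeR and DESeq2 called 0. At an unadjusted p below 0.05 there were 4 higher and 0 lower, against 3.14% and 2.91% of all genes. The same 4 were those whose groups did not overlap, or 7.27% of the members tested, against 3.71% of all genes higher and 2.82% lower. The members' median log2 fold change was -0.13, beside -0.03 over all genes.

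Slit1, a secreted repellent of Robo-bearing cells, had 38.4, 21.9, 34.9 and 20.9 normalised read counts in the 4 KO libraries against 5.42, 2.46 and 13.7 in WT. The lowest KO library stood above the highest WT library, with a log2 difference of 2.07 ± 0.55 (SE) and a limma adjusted p of 0.776. Nrp1, the semaphorin and Vegfa co-receptor, had 158, 184, 171 and 119 in KO against 85.4, 100.7 and 83.1 in WT, a log2 difference of 0.80 ± 0.25 (SE). Sema4a, a transmembrane semaphorin, had 25.1, 28.1, 24.1 and 27.8 in KO against 10.8, 11.1 and 15.6 in WT, the narrowest spread of the 4. Ntn3, a netrin of sensory ganglia, had 17.2, 21.9, 25.9 and 29.0 in KO against 9.48, 9.83 and 11.7 in WT. KO4 and WT2 share the code number 169, and their values were 20.9 against 2.46 for Slit1, 119 against 100.7 for Nrp1, 27.8 against 11.1 for Sema4a and 29.0 against 9.83 for Ntn3, an order already fixed by how the 4 were picked. The authors' deposited table of 539 genes higher in KO at E8.5 lists these 4 and Epha3, none with an adjusted p below 0.05 in that table. Their table of 437 genes lower in KO lists 0 members. Epha3, below the mean required and so not tested, had 14.1, 2.08, 2.41 and 4.64 in KO against 0, 1.23 and 0 in WT, also without overlap.

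**Figure D2:**
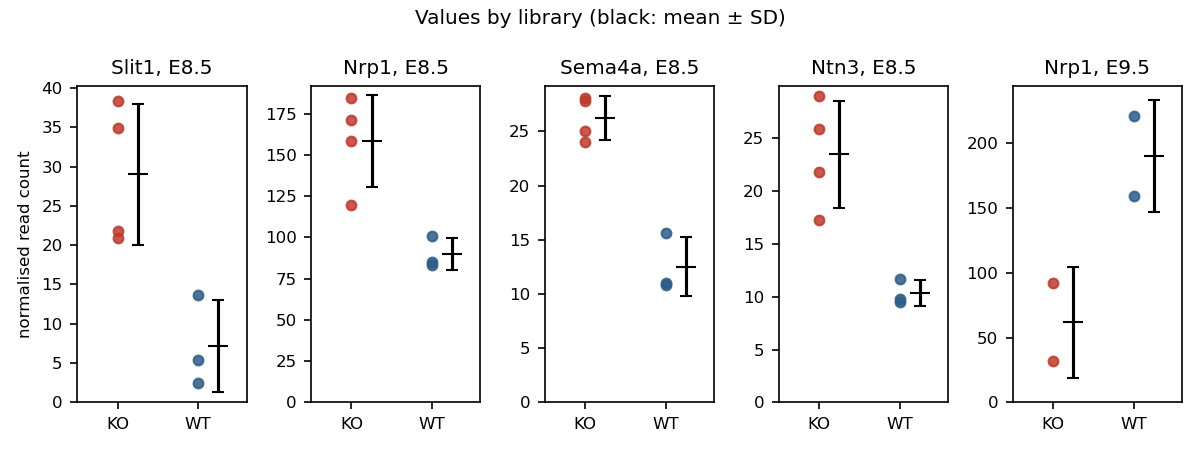
Normalised read counts by library for the 4 tested members higher in every KO library at E8.5, and for Nrp1 at E9.5, KO left of WT, with mean ± SD in black. Nrp1 lies above WT in all 4 KO libraries at E8.5 and below WT in both KO libraries at E9.5.

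Other members at E8.5 varied between libraries more than between genotypes. Ephb1, an EphB receptor, had 138, 184, 236 and 84.6 normalised read counts in KO against 172, 236 and 416 in WT. Ephb2 had 45.5, 54.1, 83.6 and 69.6 in KO against 73.2, 94.6 and 137.8 in WT. Both ranges overlapped. Sema3a ran from 46.4 to 204 in KO against 120.4 to 234 in WT, Slit3 from 19.8 to 58.9 in KO against 44.7 to 100.7 in WT, and Sema6c from 13.3 to 35.5 in KO against 25.7 to 44.0 in WT. Plxna1 ran from 329 to 589 in KO against 471 to 684 in WT. Efnb3 ran from 153 to 205 in KO against 66.4 to 192 in WT and Sema6b from 13.5 to 30.1 in KO against 9.83 to 23.5 in WT. All of these ranges overlapped. Robo1, a Slit receptor, was high in KO3 at 334 and in WT3 at 503, and lay between 91.6 and 141.6 in the other 5 libraries. KO3 and WT3 were also the libraries with the highest summed member level, 1010.2 and 1033 RPM against 407 to 589 elsewhere, and the ones whose gene levels correlated most strongly with transcript length (Spearman 0.473 and 0.497 over 11826 genes). In the other 5 libraries this correlation ran between -0.438 and 0.031.

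At E9.5, 11 of the 20 guidance receptors tested were called lower in KO Sox10+ cells and none higher. Of 43 members tested, limma called 16 lower and 1 higher, or 37.2% and 2.33%, against 23.0% of all 12000 genes lower and 24.5% higher. The members' median log2 fold change was -1.86, beside -0.14 over all genes, and 36 of 43 lay below 0 and 7 above, against 52.7% and 47.3% of all genes. Ligands accounted for 5 lower calls and the 1 higher call, out of 23 tested. The groups did not overlap for 31 members lower and 4 higher in KO, or 72.1% and 9.30%, against 41.7% and 38.6% of all genes. Markers of other cell types and transcript length also differed between the E9.5 groups. The visceral endoderm list summed to 51.1 and 120.6 RPM in KO against 3.6 and 3.4 RPM in WT. The mesoderm and mesenchyme list summed to 63.7 and 43.2 RPM in KO against 145 and 195 RPM in WT. Its 7 tested genes were split, with 2 called lower and 2 called higher. Endothelial markers stayed at 4.8 RPM or less in all 4 libraries. The part of these cell type markers in the member calls was not tested. The erythroid signal above was highest in KO1, and without KO1 the calls were 30 lower and 3 higher of 41 tested, against 38.3% of all genes lower and 35.2% higher. Without KO2 they were 24 lower and 2 higher, against 33.1% and 30.2% of all genes. Without WT1 or without WT2 they were 3 lower and 0 higher, against 5.05% and 11.7% of all genes without WT1 and 4.0% and 12% without WT2. The lone sample is then assumed to vary like the other group.

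Over 11578 genes, the Spearman correlation of level with transcript length was -0.474 and -0.580 in KO against 0.599 and 0.658 in WT, and that of log2 fold change with length was -0.641. These are descriptions across genes that share libraries. The members tested are long, with a median transcript of 5491 bases against 3350.5 over all genes, and receptors are longer (6826.5 bases) than ligands (4482 bases). After a length trend was removed from each library's values, limma called 7 members lower and 0 higher, or 16.3% and 0.0%. Over all genes it called 13.9% lower and 13.3% higher, so the members' lower share stood near that of all genes. The members' median was then -0.999 beside -0.21 over all genes. The 7 were Epha3, Epha7, Ephb3, Ephb4, Nrp2, Robo1 and Sema5a, of which Sema5a is a ligand. Scaling by total reads instead of the authors' normalisation moved the median of all genes to -1.01. With that scaling 27 members (62.8%) were called lower, against 42.4% of all genes, and 0 higher, against 13.5%. The part of length in the member calls cannot be told apart from genotype in these 4 libraries.

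**Figure D3:**
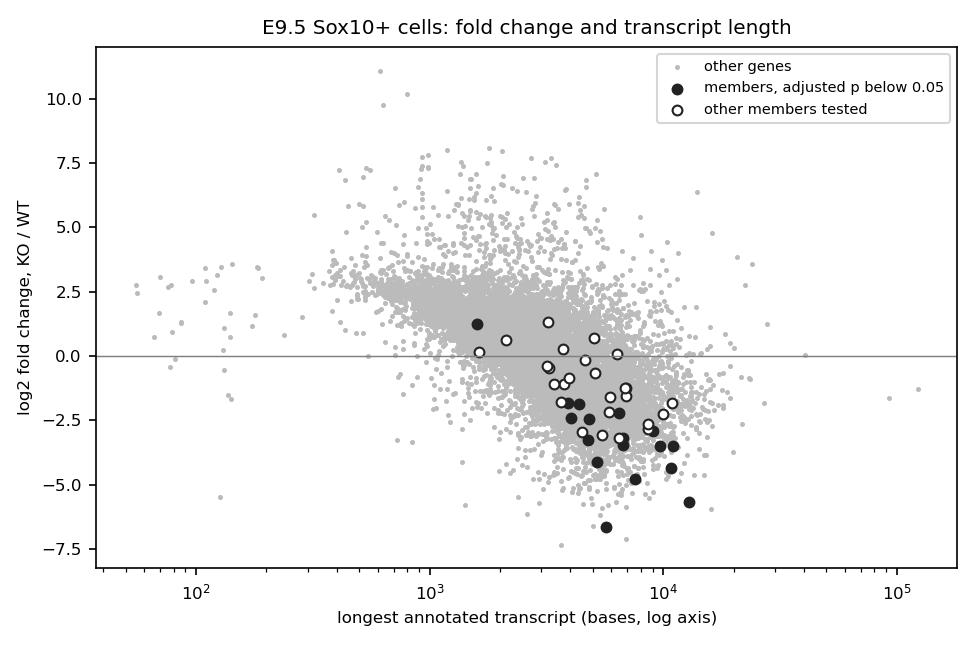
Log2 fold change of KO over WT at E9.5 against the length of the longest annotated transcript (log axis) for all genes tested with a length, with members past the adjusted p threshold as filled and other tested members as open circles. Fold change falls with length over all genes, and most members lie among the long transcripts, with Epha3 and Plxna4 lowest.

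Among semaphorin receptors, 1 of 2 neuropilins and 4 of 7 plexins tested were called lower and none higher. Over all genes 23.0% were called lower and 24.5% higher. Nrp2, the receptor of Sema3f, had 38.0 and 37.4 normalised read counts in KO against 335 and 546 in WT. The KO libraries were nearly equal and far below both WT libraries, with a log2 difference of -3.47 ± 0.38 (SE, limma adjusted p = 0.00251). Plxna1, a signalling partner of neuropilins, had 60.2 and 120.7 in KO against 609 and 683 in WT, a log2 difference of -2.90 ± 0.40 (SE, limma adjusted p = 0.00435). With the length trend removed Plxna1, whose transcript has 9034 bases, was not called, while Nrp2 was. Nrp2 and Plxna1 stayed called when any 1 of the 4 libraries was left out, and 10.7% of Plxna1's exon bases overlap another gene. Plxna2 had 20.1 and 5.10 in KO against 87.1 and 186 in WT, and Plxna4, a receptor of Sema3a and class 6 semaphorins, had 11.6 and 0 in KO against 161 and 202 in WT. Both were low in each KO library. Plxnb2, a receptor of class 4 semaphorins, had 282 and 79.9 in KO against 542 and 921 in WT, without overlap. Of the plexins not called, Plxna3 had 23.2 and 25.5 in KO against 51.6 and 66.1 in WT, and Plxnb1 had 84.4 and 1.70 in KO against 85.1 and 137 in WT. Plxnd1, also not called, overlapped between the groups, with a log2 difference of -1.56 (limma adjusted p = 0.460). Nrp1 had 31.7 and 91.8 in KO against 221 and 159 in WT, a log2 difference of -1.78 ± 0.59 (SE) that missed the limma threshold (adjusted p = 0.0567).

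Of 13 semaphorins tested, 2 were called lower (15.4%) and 0 higher. The lower share was below that of all genes, of which 23.0% were called lower and 24.5% higher. The difference between ligands and receptors was not tested. Sema5a, a transmembrane semaphorin with thrombospondin repeats, had 9.5 and 6.80 normalised read counts in KO against 147 and 225 in WT, a log2 difference of -4.33 ± 0.55 (SE, limma adjusted p = 0.00363). Sema4c, a ligand of Plxnb2, had 66.5 and 27.2 in KO against 137 and 169 in WT (limma adjusted p = 0.0436). The 3 class 3 semaphorins tested were each below WT without overlap and not called: Sema3a had 80.2 and 37.4 in KO against 118 and 235 in WT. Sema3c had 39.1 and 3.40 in KO against 99.2 and 121 in WT. Sema3f had 45.4 and 30.6 in KO against 73.9 and 88.8 in WT. Sema4a was the one semaphorin tested that lay above WT in both KO libraries, at 42.2 and 61.2 against 17.2 and 22.7, and was not called (limma adjusted p = 0.113).

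Among Eph receptors 4 of the 7 tested were called lower (57.1%) and 0 higher, against 23.0% of all genes lower and 24.5% higher. Epha3, an EphA receptor that binds Efna5, had 0 and 0 normalised read counts in KO against 75.9 and 129.7 in WT. No read was found in either KO library, which puts the KO level at least 52.6-fold lower than WT on the authors' scale, and at least 105-fold lower when scaled to total reads, with 3 reads over the KO group as the floor (limma adjusted p = 0.00399). Epha7 had 25.3 and 15.3 in KO against 166 and 208 in WT, a log2 difference of -3.17 ± 0.48 (SE, limma adjusted p = 0.00591). Epha4 stood apart from them on the authors' scale, with 36.9 and 44.2 in KO against 37.5 and 38.9 in WT. In RPKM Epha4 lay below WT without overlap, at 0.448 and 0.478 in KO against 0.801 and 0.819 in WT. It was still the leading EphA receptor in KO by RPKM. All 4 EphB receptors tested lay below WT without overlap. Ephb3 had 50.7 and 25.5 in KO against 350.3 and 366 in WT, a log2 difference of -3.28 ± 0.44 (SE, limma adjusted p = 0.00427). Ephb4, the receptor of Efnb2, had 183 and 114 in KO against 445 and 621 in WT (limma adjusted p = 0.0106). Ephb2 had 43.3 and 17 in KO against 89.1 and 111 in WT (limma adjusted p = 0.0559), and Ephb6, which lacks kinase activity, had 31.7 and 20.4 in KO against 51.6 and 58.5 in WT.

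The ephrins split. Efna4 was the only member called higher, with 591 and 318 normalised read counts in KO against 176 and 191 in WT, a log2 difference of 1.24 ± 0.36 (SE, limma adjusted p = 0.0389). It has a transcript of 1599 bases, of which 10.5% overlaps another gene, and it lay at -0.20 with the length trend removed and was not called when scaled by total reads (0.35). Efna2, the most abundant ephrin, had 800.1 and 1052 in KO against 621 and 576 in WT on the authors' scale, but 31.3 ± 3.5 RPKM in KO against 37.7 ± 2.4 RPKM in WT (SD, n = 2 each), so its direction depends on the scaling. Efna5, which binds most EphA receptors, was called lower with 27.4 and 11.9 in KO against 105 and 95.4 in WT (limma adjusted p = 0.0249). Efnb2, a ligand of Ephb4 and Ephb3, was called lower with 149.9 and 40.8 in KO against 325 and 574 in WT (limma adjusted p = 0.0333). Efnb1 had 157 and 228 in KO against 271 and 254 in WT and Efnb3 68.6 and 93.5 in KO against 115 and 94.9 in WT, both below WT without overlap and neither called.

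Few Slits, Robo and Unc5 receptors could be tested. Robo1 had 16.9 and 5.10 normalised read counts in KO against 248 and 337 in WT, a log2 difference of -4.79 ± 0.66 (SE, limma adjusted p = 0.00452). Slit3 had 6.33 and 0 in KO against 42.5 and 49.0 in WT (limma adjusted p = 0.0389), and Slit2 had 21.1 and 3.40 in KO against 30.4 and 70.7 in WT and was not called. Unc5c, the netrin receptor that leads its family in WT Sox10+ cells, had 29.6 and 5.10 in KO against 116 and 205 in WT (limma adjusted p = 0.0262). In each of these genes KO lay below WT without overlap. Robo2 also lay below WT without overlap and was not called, with a log2 difference of -2.64 (limma adjusted p = 0.185). Unc5b overlapped between the groups and was not called, with a log2 difference of -2.17 (limma adjusted p = 0.299). Ntn3 was the single netrin tested, with 52.8 and 57.8 in KO against 27.3 and 41.9 in WT on the authors' scale, and was not called. Of the 25 members below the mean required at E9.5, Epha1, Epha8, Plxnc1, Sema3b, Sema3d, Sema3g, Sema4f, Slit1 and Unc5d had no read in either KO library and at least 1 read in each WT library. Efna3 and Robo3, also below that mean, lay above WT without overlap. The share of all genes with no KO read was not computed. The KO libraries had reads on fewer genes, 14170 and 13196 against 14871 and 15668 in WT.

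**Figure D4:**
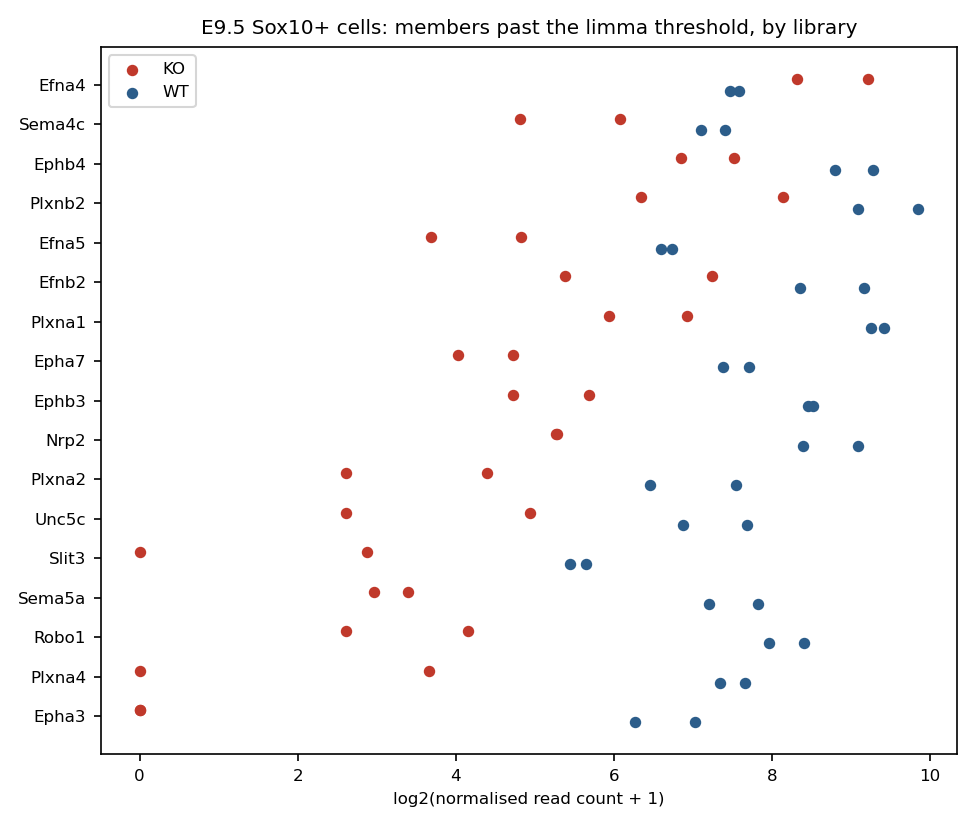
Log2(normalised read count + 1) in each E9.5 library for the 17 members past the limma threshold, KO drawn above WT in each row. All but Efna4 have both KO points left of both WT points; the KO points of Nrp2 and of Epha3 coincide.

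The authors' deposited tables for E9.5 list 20 members among 3282 genes lower in KO, 17 of them with an adjusted p below 0.05 there. They list 2 members among 3548 genes higher in KO, 1 of them with an adjusted p below 0.05. The stage table holds 24421 symbols. In the authors' deposited table Epha3 has a log2 fold change of -8.71, Robo1 of -4.66 and Nrp2 of -3.55.

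**Figure D5:**
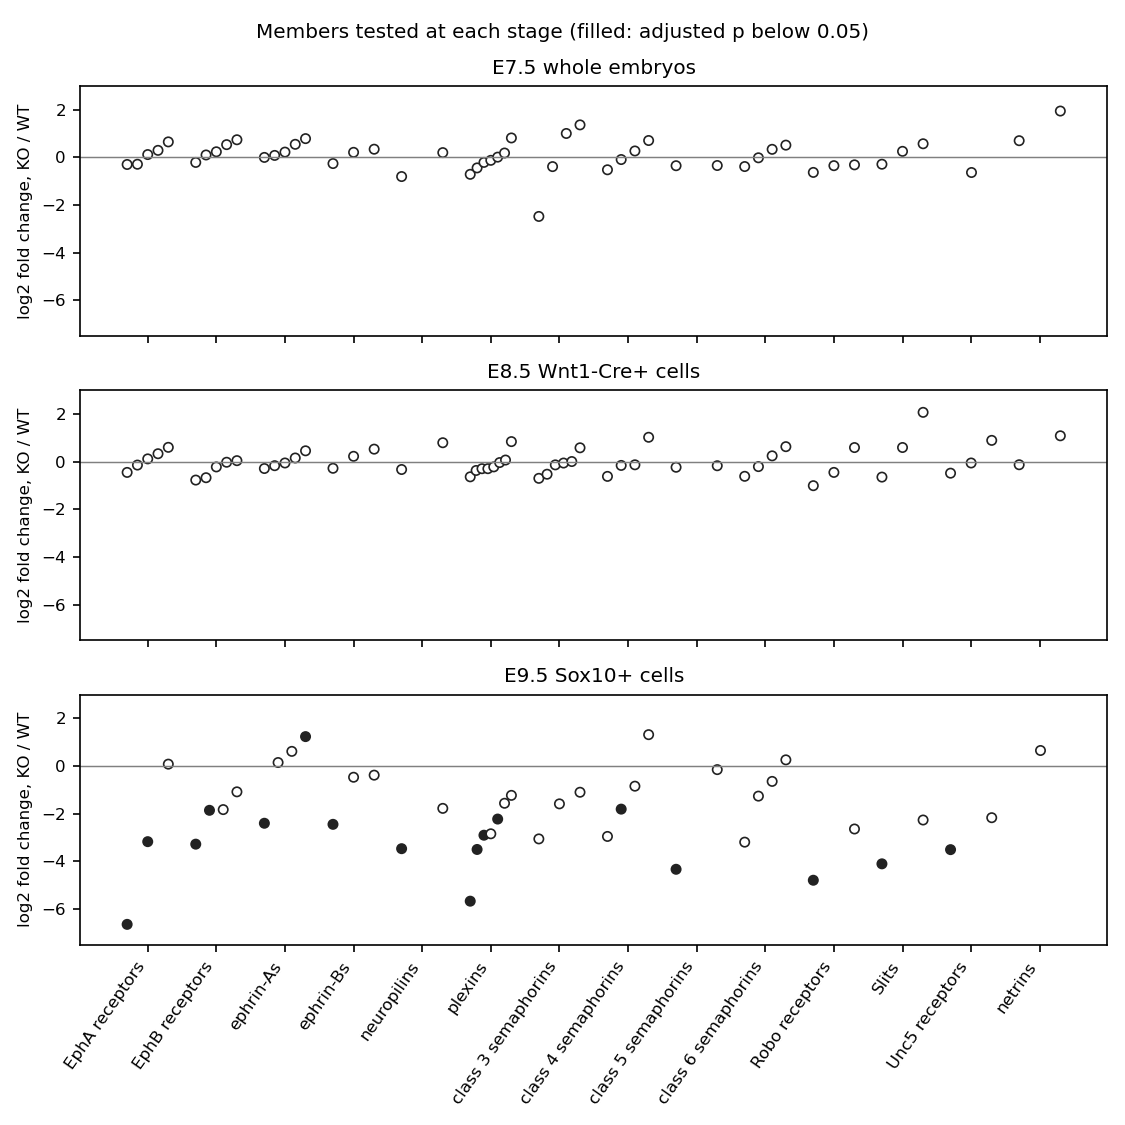
Log2 fold change of KO over WT for every member tested at E7.5, E8.5 and E9.5, by family, with filled circles for an adjusted p below 0.05. Values lie around 0 at E7.5 and E8.5, and 36 of 43 lie below 0 at E9.5.

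Each stage was normalised on its own and holds other cells, so the stages are set side by side without a test. Ephb3 had 182 and 211 normalised read counts in KO against 162 and 112 in WT at E7.5, and was the reverse at E9.5. Efna5 had 27.8 and 27.2 in KO against 24.6 and 13.8 in WT at E7.5. Robo1 ranged from 91.6 to 334 in KO against 131 to 503 in WT at E8.5, and Nrp2 from 95.1 to 360 in KO against 157 to 356 in WT. At that stage the ranges of both genes overlapped, and at E9.5 they did not.

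The miR-302 family silences messages that pair with its seed, bases 2 to 8 of the mature strand. Sequences from RefSeq (GRCm38.p6, chromosome 3) are shown for the 2 mature strands whose seed was searched, with the seed in capitals.
miR-302b-3p: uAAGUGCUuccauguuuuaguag
miR-302d-3p: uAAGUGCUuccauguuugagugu
In the longest annotated 3′ UTR, 15 of 68 members (22.1%) held AGCACTT or GCACTTA, beside 19.0% of 19549 genes, and 5 (7.35%) held the full AGCACTTA, beside 3.15%. The members' UTRs were longer, with a median of 1739.5 bases against 1129 over all genes. In the shortest annotated UTR 7 members (10.3%) held a match, beside 10% of all genes. The 5 full matches are shown first, then the matches of Nrp2 and Plxna1, which stayed called at E9.5 without any 1 library; capitals mark the match and the letters are the transcript strand (GENCODE, GRCm38).
Epha2, chr4:141328716-141328741, plus strand: aaaggacccagctaAGCACTTAgcag
Epha5, chr5:84055873-84055898, minus strand: gttactatcagttgAGCACTTAtaca
Plxnc1, chr10:94790994-94791019, minus strand: ctagtgtctaaagcAGCACTTAaaaa
Unc5b, chr10:60763442-60763467, minus strand: ctgggacctgagggAGCACTTAgtga
Unc5d, chr8:28652193-28652218, minus strand: gagtacatgacaccAGCACTTAttat
Nrp2, chr1:62796336-62796360, plus strand: gagacccgcccctaAGCACTTcaca
Nrp2, chr1:62798130-62798154, plus strand: ccatggcgtcacggAGCACTTtttg
Plxna1, chr6:89317253-89317277, minus strand: ggtgtttgttcgcaAGCACTTtagc
A match is a description of letters, not evidence of a site. Of the 5 members with the full match, the E7.5 test held 2, the E8.5 test 3 and the E9.5 test 1, and none of these was called; Epha5 and Unc5d were tested at no stage. Epha2, an EphA receptor of epithelia, had 125 and 80.9 normalised read counts in KO against 57.6 and 70.4 in WT at E7.5, without overlap. Unc5b, a netrin receptor known in vessels, had 116 and 55.3 in KO against 213 and 69.1 in WT at E7.5, where the groups overlapped. Plxnc1, the receptor of Sema7a, had 35.3, 43.7, 94.4 and 19.7 in KO against 67.7, 36.9 and 107.5 in WT at E8.5, also overlapping. At E9.5, 7 members with any match were tested, 6 called lower, with a median log2 fold change of -3.17 and a median transcript of 6746 bases. Among all 2449 tested genes with a match, 30.8% were called lower and 14.3% higher, with a median of -0.81 and a median transcript of 4612 bases. The 36 members without a match had 10 lower and 1 higher call, a median of -1.68 and a median transcript of 5066.5 bases, beside 21.7% lower and 26.8% higher over all 8708 tested genes without one.

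Co-receptors and effectors of the same receptors were taken from 2 lists. Of 24 co-receptors and other cues tested at E9.5, 12 were called lower (50%) and 0 higher, beside 23.0% of all genes lower and 24.5% higher. Flrt3, a ligand of Unc5 receptors, averaged 280.5 ± 26.5 normalised read counts in KO and 1341 ± 137 in WT (SD, n = 2 each). Neo1, a netrin receptor, averaged 72.1 ± 25 in KO and 535 ± 192 in WT, and L1cam, an adhesion partner of Nrp1, 7.30 ± 3.11 in KO and 135 ± 14 in WT. Ptk7, Dag1 and Sdc1 were also called lower. Of 56 intracellular effectors tested, 19 were called lower (33.9%) and 8 higher (14.3%), against 23.0% of all genes lower and 24.5% higher. Rasa1, a Ras regulator downstream of EphB receptors, averaged 86.9 ± 9.4 in KO and 626 ± 98 in WT, and the adaptor Crkl and the kinase Gsk3b were called lower too. Cdk5, a kinase of the semaphorin pathway, was called higher, averaging 801 ± 209 in KO and 229 ± 44 in WT. The median transcript was 5291 bases in the first list and 4686.5 in the second. Neither list had a call at E7.5 or E8.5. The crest marker list summed to 2732 and 2720 RPM in KO against 2936 and 1997 in WT at E9.5, with 3 of its 12 genes called lower and 1 higher.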

How the data were processed

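Libraries were made with SMART-Seq v4 and Nextera XT kits, per the labels' protocols. The deposited tables hold normalised read counts per gene (signal), made by the authors separately for each stage; the submitters' processing notes name FastQC 0.11.5, STAR 2.7.0f and mm10, and the counter is not given in the sources used here. Whole reads were recovered for 100% of values within 0.01. The authors' deposited tables of changed genes give log2 fold changes, p-values and scores of the authors' own test. The authors' deposited E7.5 table of genes higher in KO was not used, since only 3 of its 3365 means shared with the stage table matched within 1%. Here log2(value + 1) of genes with a mean of at least 10 was tested per stage with limma 3.58.1 in R 4.3.3 (trended empirical Bayes, 2-sided, Benjamini-Hochberg at 0.05 over all genes). Alternatives were edgeR 4.0.16 and DESeq2 1.42.0 on recovered reads, other pseudocounts, minimum means, scalings and blocks, a length trend removed by loess, and leaving out each library. Transcript lengths and 3′ UTRs came from GENCODE M21 (GRCm38), which matched 23384 of 24421 symbols and all 68 members. Counting is not stated to use strand, so members whose exons overlap another gene are uncertain. Named members are, per stage, those called and then those of smallest p up to 12, the highest in WT of each family, those with a full seed match and those at 0 throughout. Members and lists were chosen with earlier results of these data known. The test was also run on simulated counts with known fold changes. These held no transcript length trend and no differences in cell types, so that run cannot speak to either. Depth ran from 4912827 to 14861728 reads, where 3 reads are 0.202 to 0.611 RPM, covering counting error only.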

Additional observations from a re-analysis of the deposited data

Results flagged for a closer look

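Of the members tested at both stages of a pair, 4 lay on opposite sides of WT at 2 stages, with no overlap between KO and WT at either. The share of all genes that switched sides in this way was not computed. Without overlap, 16.1% of all genes lay higher in KO at E7.5, 3.71% higher at E8.5 and 41.7% lower at E9.5. The difference between stages was not tested, since the stages were normalised separately and hold other cells. Epha3, Ntn1, Plxnc1, Sema4f and Slit1 also switched sides without overlap, but were below the mean required at E9.5 or at the earlier stage. Efna5 had a log2 fold change of 0.55 at E7.5 and -2.40 at E9.5. Ephb3 had 0.54 at E7.5 and -3.28 at E9.5. Nrp1 had 0.80 at E8.5 and -1.78 at E9.5. Sema3f had 1.37 at E7.5 and -1.10 at E9.5. At E9.5 the log2 fold change over all genes also fell with transcript length, and with the length trend removed Nrp1 was at -1.32. In that fit Ephb3 stayed called lower at E9.5 and Efna5 did not. None of the 27 members tested in the 4 KO libraries at E8.5 had 1 library far from the others by Dixon's test, which chance alone would flag in about 1 group in 20.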

How the results depend on the processing

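The count of 17 members called at E9.5, of 43 tested, was 11 with a minimum mean of 100, where only 13 members were tested. Of these, 9 were lower and 2 higher, or 69.2% and 15.4%, against 31.5% and 33.0% of all genes. The count was 7 with the length trend removed, and 27 with scaling to total reads, an alternative chosen after seeing the data. It ranged from 3 to 33 when 1 library was left out, lowest without WT1 or WT2 and highest without KO1, and was 14 with edgeR and 19 with DESeq2. With no minimum mean 14 members were called, 8 of them among the 17; Efna4, Efna5, Efnb2, Plxna2, Plxna4, Plxnb2, Sema4c, Slit3 and Unc5c were lost, and 13.5% of all genes were then called lower and 15.6% higher. The median at E9.5 was -0.999 with the length trend removed and -2.74 with scaling to total reads, and from -2.48 to -1.18 without 1 library. The medians without 1 library ran from -0.23 to 0.47 at E7.5 and from -0.29 to 0.19 at E8.5, and the calls there were 0 to 0. With the replicate block, 2 members (Slit1 and Nrp1) were called at E8.5, against 1.25% of all genes higher and 4.28% lower, and 21 at E9.5, against 22.7% and 25%. Numbers did not pair the libraries (correlations of -0.116 at E7.5, -0.171 at E9.5 and 0.076, -0.025 and 0.554 at E8.5), and the crossed pairing, also added after seeing the data, gave 0 members at E7.5 and 23 at E9.5. Over all genes the crossed pairing called 29.4% lower and 26.2% higher at E9.5. Matches to the seed fell to 7 members in the shortest 3′ UTR. Direction reversed for Epha2 at E8.5 (-0.37 with codes 163 and 169 as a block), Unc5b at E8.5 (0.035 with the replicate block) and Efna4 at E9.5 (-0.20 with the length trend removed). Without 1 library, direction also reversed for Ephb4 (-0.15 to 1.64), Plxna1 (-0.018 to 1.66), Sema4c (-0.081 to 1.5) and Unc5b (-1.40 to 0.21) at E7.5, and for Epha2 (-0.47 to 0.61) and Unc5b (-0.84 to 0.035) at E8.5. The causes were not tested. Depth limits members near the mean of 10, where a KO library at 0 sets the fold change.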
